A study of Mus musculus with 160 samples.

Results

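The heart of Q175 mice given 100 mg/kg of CHDI-00390576 was compared with the heart of Q175 mice given 30 mg/kg. The comparison took every heart library whose title carries either dose, which made 8 libraries per dose and 16 of the 160 libraries of the study. Each dose group held 4 males and 4 females, and the animal numbers in the labels showed 16 separate mice. All 16 mice were heterozygous Q175 knock-ins on a C57BL/6J background. Oral dosing b.i.d. began when the mice were 4 weeks old, and flash-frozen tissue was taken at 6 months. The study sequenced RNA of 5 tissues from 32 mice, and its other heart groups, with 8 libraries each, were Q175 and wild-type (WT) mice on vehicle. Those 16 vehicle libraries entered the fit, where they shared the estimate of the spread. The comparison asks whether the higher dose changed the heart's transcripts further than the lower dose.

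Q175 mice carry an expanded CAG repeat in 1 of their copies of Htt, the gene mutated in Huntington's disease, in every cell of the body, so the heart carries the mutation as well as the brain. CHDI-00390576 is an inhibitor of class IIa histone deacetylases, the enzymes encoded by Hdac4, Hdac5, Hdac7 and Hdac9. In cardiac muscle these proteins shuttle between cytoplasm and nucleus, bind MEF2 transcription factors and hold back their target genes. Kinases such as CaM kinase II and protein kinase D phosphorylate them, after which they leave the nucleus and genes of hypertrophic growth are released.

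Values are in CPM, a gene's estimated counts relative to its library's total after TMM scaling, given as the lowest, median and highest of the 8 libraries of a group. Differences are log2 differences of 100 mg/kg minus 30 mg/kg with their standard error (SE), from edgeR's quasi-likelihood fit. The depth of the heart libraries was between 33.5 M and 41.7 M estimated counts, and the 13 genes of the mitochondrial genome took 26.5% to 42.3% of them. Cardiomyocyte markers summed to between 43310 and 58560 CPM at 30 mg/kg and to between 46740 and 52090 CPM at 100 mg/kg, so that the labelled tissue's defining genes were abundant in every library. In bulk tissue, fewer cells of a type and less RNA per cell cannot be told apart. The library of 100 mg/kg male 4 stood apart in 2 ways. Its lung markers summed to 2810 CPM, against 36.8 to 901 CPM in the other 7 libraries of its dose, and it carried a surplus of short transcripts.

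That surplus was measured as a short-transcript index, the median log2 deviation of genes with an effective transcript length under 1000 bases minus that of genes over 4000 bases. The index was −0.36 to 0.24 with a median of −0.18 at 30 mg/kg, and −0.23 to 1.13 with a median of 0.09 at 100 mg/kg. Male 4 stood at 1.13 and male 3 at 0.64, above every library of the 30 mg/kg group. The other 6 libraries at 100 mg/kg reached at most 0.30, in female 1, which also lay above every library of the 30 mg/kg group. Among the vehicle groups, a Q175 female reached 0.83. Males 3 and 4 at 100 mg/kg also had mitochondrial genome sums of 472500 and 492800 CPM, against 279200 to 319900 CPM in the other 6. Because of this pair, the main gene groups below are given with all 16 libraries and again without 100 mg/kg males 3 and 4.

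**Figure D1:**
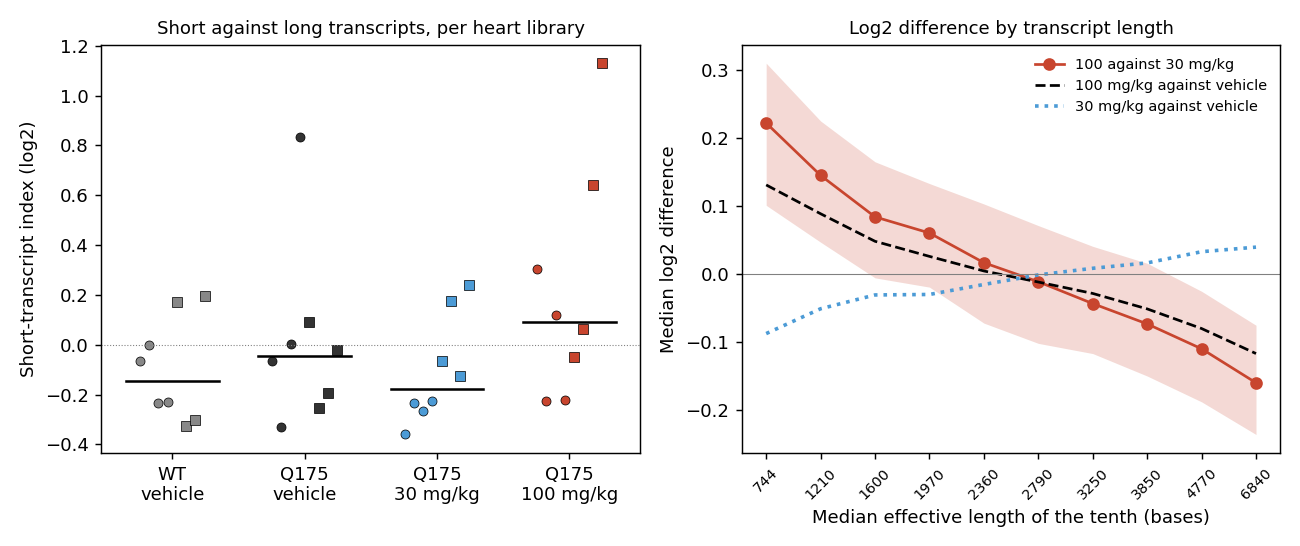
Left, the short-transcript index of each heart library (log2, vertical axis) by group, with squares for males, circles for females and a bar for the median of 8. Right, the median log2 difference in each of 10 equal classes of genes ordered by effective length (horizontal axis, median length in bases), with the interquartile range shaded for 100 against 30 mg/kg; that line runs from 0.22 in the shortest class to −0.16 in the longest.

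No gene passed an adjusted p of 0.05 between the doses. Of 15979 genes tested, 0 were called (0%), and the smallest adjusted p was 0.373 in edgeR and 0.0767 in DESeq2, which also called 0. At an unadjusted p under 0.05 there were 2040 genes (12.8%; DESeq2 2226), of which 1224 were higher at 100 mg/kg (7.66% of the genes tested) and 816 lower (5.11%). Without 100 mg/kg male 4 that number was 785, and without males 3 and 4 it was 535 (3.31%), with 242 higher and 293 lower. On the FPKM scale with a pseudocount of 1, limma gave 794 higher and 889 lower at an unadjusted p under 0.05.

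The groups were large enough to bound the difference for most genes. The median SE was 0.11 on the log2 scale. The 95% interval of the difference lay inside 1.5-fold in either direction for 11660 genes (73%) and inside 2-fold for 14286 (89.4%). Genes whose interval lay inside 1.5-fold had a median of 15.5 CPM, and the rest 0.839 CPM, so that the bound is weakest for genes of low level. These bounds come from each gene's own interval and are not corrected for the number of genes.

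The targets of the compound come first. All 4 class IIa deacetylases were measured in every heart, none was called, and all 4 estimates were below 0 with a median of −0.13, beside 0.0029 over all genes; on the FPKM scale Hdac7 was above 0. Hdac4 (ENSMUSG00000026313) stood at 14.7, 20.5 and 23.2 CPM at 30 mg/kg and at 10, 16.1 and 21.3 CPM at 100 mg/kg. The 2 groups overlapped over most of their range, and the lowest value was that of 100 mg/kg male 4. The log2 difference was −0.26 with an SE of 0.12 (unadjusted p = 0.0368, adjusted p = 0.38), and −0.13 with an SE of 0.11 without males 3 and 4.

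Hdac5 (ENSMUSG00000008855), the most abundant of the 4 by counts per gene, stood at 60.3, 66.2 and 75.9 CPM at 30 mg/kg and at 42.4, 63.3 and 69.4 CPM at 100 mg/kg. Its difference was −0.15 with an SE of 0.09 (adjusted p = 0.442) and −0.04 with an SE of 0.08 without the pair. Hdac7 (ENSMUSG00000022475), best known from endothelium, stood at 28.1, 35.5 and 38.8 against 29.3, 34.8 and 39.8 CPM. Its difference was −0.02 with a 95% interval from −0.18 to 0.14, and without the pair it was 0.04. Hdac9 (ENSMUSG00000004698), whose short splice form lacks the deacetylase domain, stood at 13, 21.6 and 29.9 against 10.2, 18.4 and 29.7 CPM. Its difference was −0.10 with a 95% interval from −0.48 to 0.27, and males alone gave 0.24. Summed over the 4 genes, the level was 123.7 to 162.8 CPM at 30 mg/kg and 99.3 to 150.7 CPM at 100 mg/kg.

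Htt itself stood at 16.3, 22.1 and 23.6 CPM at 30 mg/kg and at 6.74, 19.9 and 23.8 CPM at 100 mg/kg, with the lowest value in male 4. The difference was −0.29 with an SE of 0.18 (adjusted p = 0.443). It was −0.07 with an SE of 0.14 without males 3 and 4, and 0.01 with an SE of 0.07 with the short-transcript index as a covariate. The index is built from short and long genes of these same libraries, so the value with the covariate is no separate check. Counts per gene do not separate the expanded allele from the normal allele.

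The partners of the class IIa deacetylases gave small estimates, most of them below 0. Median effective lengths were 3770 bases for the deacetylases, 4330 for MEF2 factors and partners and 3570 for kinases and export factors. Over all genes, the length class with a median of 3850 bases had a median difference of −0.07. The class with a median of 4770 bases had −0.11. What part of these estimates goes with transcript length was not tested. Of 7 tested MEF2 factors and partners, 0 were called, 6 estimates were below 0 and the median was −0.11 (−0.07 without the pair). Mef2a, the most abundant MEF2 gene named here by counts, stood at 155, 179 and 197 CPM at 30 mg/kg and at 123, 161 and 170 CPM at 100 mg/kg (−0.17 with an SE of 0.07, adjusted p = 0.373). The groups overlapped, and all 8 libraries at 100 mg/kg lay below the median at 30 mg/kg. Mef2c differed by −0.09 and Mef2d by −0.12, both with an interval that spans 0, and Mef2d by −0.04 without the pair. Of 16 tested kinases and export factors of the class IIa proteins, 0 were called, 11 estimates were below 0 and the median was −0.09 (−0.02 without the pair). Camk2a, a CaM kinase II subunit best known from brain, stood at 38.8, 44.6 and 48.1 against 27.9, 38.1 and 40.5 CPM (−0.24 with an SE of 0.08, adjusted p = 0.373).

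Of 21 tested MEF2 target genes, which would be released if the repression were lifted, 0 were called, 7 estimates were above 0 and 14 below, and the median was −0.10. At an unadjusted p under 0.05 there were 0 higher and 3 lower. Without males 3 and 4 the median was −0.05. The median effective length of the MEF2 targets was 2970 bases. Over all genes, the length class with a median of 2790 bases had a median difference of −0.01. Klf6, a zinc finger transcription factor, had the smallest p of the list and stood at 57.3, 69.4 and 79.9 CPM at 30 mg/kg and at 50.4, 60.8 and 66.6 CPM at 100 mg/kg. The groups overlapped, and the difference was −0.21 with an SE of 0.08 (adjusted p = 0.373), and −0.22 without the pair. Of 14 deacetylases of the other classes and their corepressors, 0 were called and 9 estimates were below 0, with a median of −0.08 (−0.03 without the pair). Hdac11, the class IV enzyme, was 17.5, 20.6 and 22.4 against 16.3, 18 and 19 CPM (−0.19 with an SE of 0.07), a difference of −0.18 without the pair.

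**Figure D2:**
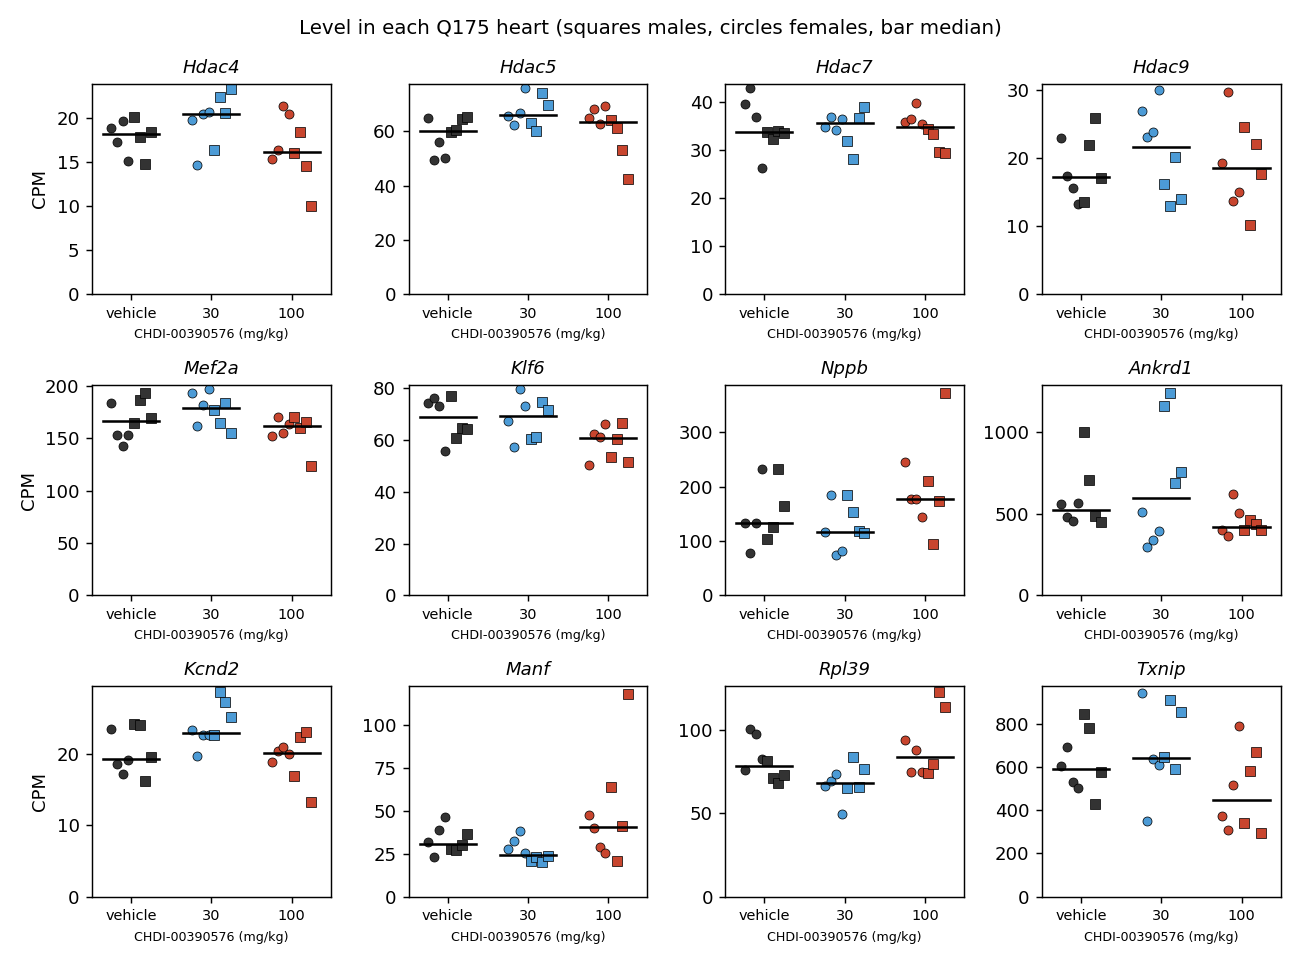
CPM in each Q175 heart (vertical axis, from 0) for 12 genes on vehicle, 30 mg/kg and 100 mg/kg, with squares for males, circles for females and a bar for the median of 8. The 2 doses overlap in all 12 panels, and at 100 mg/kg the highest Manf and Rpl39 and the lowest Kcnd2 are those of males.

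The genes with the smallest p values, 10 in each direction, were named by rule and were not calls. Each had an adjusted p of 0.373 in edgeR. Exoc3l4, related by sequence to a subunit of the exocyst, had the smallest p of the named genes. It stood at 2.65, 3.01 and 3.51 CPM at 30 mg/kg and at 1.65, 2.3 and 2.66 CPM at 100 mg/kg, so that only the end points of the groups overlapped. The difference was −0.50 with an SE of 0.10, or 1.41-fold lower, and −0.42 with an SE of 0.11 without males 3 and 4.

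Of the 10 named genes below 0, 3 encode kinases or a kinase subunit. Prkca, protein kinase C alpha, a regulator of cardiac contractility, stood at 25.8, 30 and 31.5 against 16.8, 24.4 and 27.4 CPM (−0.31 with an SE of 0.08). Rps6ka2, a ribosomal S6 kinase downstream of ERK, stood at 39.6, 44.7 and 50.8 against 23, 36.4 and 41.5 CPM (−0.34 with an SE of 0.09). Prkab2, a regulatory subunit of AMP-activated kinase, stood at 43.9, 52.3 and 66.5 against 33.4, 42.9 and 49.9 CPM (−0.29 with an SE of 0.08). In each of the 3 the groups overlapped and the lowest value was that of male 4. Without males 3 and 4 the differences were −0.25, −0.28 and −0.19. The other named genes below 0 were Fam81a (−0.51), Epb41l3, a membrane skeleton protein (−0.33), Zswim6 (−0.37), Ttc21b, a part of the ciliary transport machinery (−0.37), Parp3 (−0.20) and Adam11 (−0.42).

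Of the 10 named genes above 0, Mif4gd, a binding partner of the histone mRNA factor SLBP, had groups that did not overlap, with 19.4, 23.7 and 25.7 CPM at 30 mg/kg and 25.8, 26.5 and 33.6 CPM at 100 mg/kg. The gap between the groups was smaller than the range within either. The difference was 0.26 with an SE of 0.07, and 0.19 without males 3 and 4. Over all genes tested, 7 (0.0438%) had groups that did not overlap, beside 0% called: Mif4gd, Gngt2, Efna1 and 5830454E08Rik, higher at 100 mg/kg, and Atp8a2, Pbxip1 and Snap91, lower. All but Mif4gd were named after their values were seen. Atpaf2, an assembly factor of mitochondrial ATP synthase, stood at 19.9, 21.6 and 24.9 against 23.8, 25.9 and 27.5 CPM (0.23 with an SE of 0.06, and 0.21 without the pair). Myct1, a gene of endothelial cells, stood at 10.4, 11.6 and 15 against 13.3, 15.7 and 17.8 CPM (0.34 with an SE of 0.09, and 0.32 without the pair).

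The other named genes above 0 were Acot9, a mitochondrial acyl-CoA thioesterase (0.21), Rab5if (0.44), Plbd1 (0.27), Ado, a cysteamine dioxygenase (0.23), Ccdc69 (0.57), Ccdc166 (0.57) and Rpl9-ps6 (0.81), a copy of a ribosomal protein gene whose reads cannot be told from the parent gene with certainty. Rab5if showed the pull of a single library most clearly: male 4 stood at 68.1 CPM and the other 7 at 33 to 47.7 CPM. All 20 genes kept their sign when males 3 and 4 were left out, and the sizes then ranged from 0.14 to 0.66 in absolute log2. The genes were picked by p with those males included and most libraries are shared. Kept signs and smaller sizes follow largely from that choice and add no support.

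**Figure D3:**
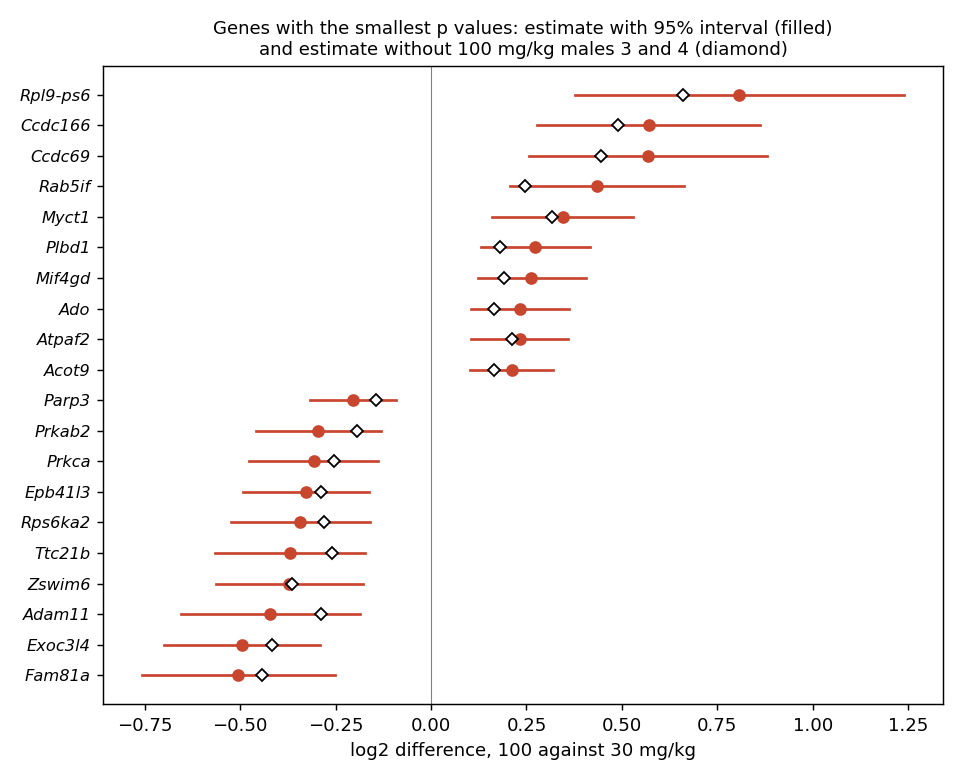
Log2 difference of 100 against 30 mg/kg (horizontal axis) for the 20 genes named by smallest p, with filled points and 95% intervals for all libraries and open diamonds without 100 mg/kg males 3 and 4. Rpl9-ps6 is highest at 0.81 and Fam81a lowest at −0.51. All 20 diamonds lie nearer to 0 than the filled points, and none crosses it, for genes picked with those males included.

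Ribosomal protein genes were the largest group that stood on a single side. Of 75 cytosolic ribosomal proteins tested, 0 were called, all 75 estimates were above 0, and 63 had an unadjusted p under 0.05, beside 7.66% of all genes in that direction. Their median was 0.29, and 0.10 without males 3 and 4, when 71 estimates were above 0 and 2 had an unadjusted p under 0.05. Summed, they made up 10590, 11490 and 13560 CPM at 30 mg/kg and 11340, 13160 and 20500 CPM at 100 mg/kg, with the highest sum in male 4. Rpl39, the member with the smallest p and among the smallest ribosomal proteins, stood at 49.5, 68.1 and 84.1 CPM at 30 mg/kg and at 74.2, 83.9 and 123 CPM at 100 mg/kg. The groups overlapped between 74.2 and 84.1 CPM. The difference was 0.39 with an SE of 0.11 (adjusted p = 0.373), and 0.22 with an SE of 0.10 without the pair.

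Ribosomal protein mRNAs typically begin with a C followed by a run of pyrimidines, the element through which mTOR signalling controls their translation. Start regions of 3 of them are shown because they are the members of smallest p whose annotated start holds such a run. Genes of a single chromosome were left out of this choice. They run from 14 bases before the start to base 16 of the transcript, from RefSeq on build GRCm38.p6, with the run in capitals.
Rps18, chr17:33955650-33955679, minus strand: acgtcacttccgctCTCTCTTCCacaggag
Rps26, chr10:128626491-128626520, minus strand: tcgggcaagccgccggatCCTCTTTCgagt
Rps15a, chr7:118116132-118116161, minus strand: tctctttctgccatCTTCCCTCgccggtga
A C with at least 6 following pyrimidines, on the transcript strand and within 5 bases of the annotated start, was found in 20 of the 55 ribosomal protein genes matched to a start region (36.4%) and in 814 of 11626 tested genes matched (7%). The 20 genes with the run had a median log2 difference of 0.29 and the matched genes without it 0.29. The match is a description of the letters in this window and no measure of translation.

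Over all genes, the difference between the doses followed transcript length. In the 10% of genes with the shortest effective length (median 744 bases) the median log2 difference was 0.22, with 368 genes higher and 10 lower at an unadjusted p under 0.05. In the 10% with the longest (median 6840 bases) it was −0.16, with 11 higher and 210 lower. Ribosomal proteins had a median length of 743 bases. Among genes of at most 991 bases, 62 ribosomal proteins had a median of 0.30, 41 oxidative phosphorylation genes 0.25 and the 1496 other genes 0.21, of which 80.3% were above 0. With the short-transcript index as a covariate, the median of the cytosolic ribosomal proteins was 0.05. The index is built from these same libraries. The 62 ribosomal protein and 41 oxidative phosphorylation genes belong to the short genes that define it. For these lists, a median nearer to 0 with the covariate was thus partly fixed in advance and is no separate check. The index moved with the dose in these 16 libraries, and what part of the difference belongs to the dose cannot be told apart from it.

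Genes of the respiratory chain encoded in the nucleus were also higher in estimate. Of 62 nuclear oxidative phosphorylation genes tested, 0 were called, 60 estimates were above 0 and 22 had an unadjusted p under 0.05, with a median of 0.23. The median was 0.11 without males 3 and 4, when 61 estimates were above 0 and 0 had an unadjusted p under 0.05, and 0 to 2 decimals with the index as a covariate. Atp5l, a subunit of ATP synthase, stood at 346, 386 and 498 CPM at 30 mg/kg and at 359, 473 and 571 CPM at 100 mg/kg (0.24 with an SE of 0.10, adjusted p = 0.373). Cox6a1, a cytochrome c oxidase subunit of non-muscle type that was named after its values were seen, stood at 38.9, 48.5 and 64.6 against 57.7, 67.3 and 139 CPM. In male 4 it reached 139 CPM, and the other 7 libraries lay between 57.7 and 73.8 CPM. The 13 genes of the mitochondrial genome had a median of 0.11 with all libraries and −0.14 without males 3 and 4.

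Of 31 proteasome genes tested, 0 were called, 28 estimates were above 0 and 13 had an unadjusted p under 0.05, with a median of 0.14, and 0.07 without the pair. Psmd8, a subunit of the regulatory particle, stood at 51.5, 58.7 and 68.6 against 58.8, 65.6 and 87.9 CPM (0.20 with an SE of 0.07). Timm9, a chaperone of mitochondrial import named after its values were seen, stood at 8.2, 9.56 and 10.8 against 10.2, 12.3 and 23 CPM, and at most 13.7 CPM outside male 4. The proteasome genes had a median length of 1330 bases, and their median with the index as a covariate was −0.0038.

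Genes of the unfolded protein response were higher at 100 mg/kg in estimate. Of 27 tested genes of the unfolded protein and integrated stress response, 0 were called, 24 estimates were above 0 and 8 had an unadjusted p under 0.05. Their median was 0.23, 0.41 within males and 0.04 within females, a difference that was not tested. Without males 3 and 4 it was 0.13, with 2 genes at an unadjusted p under 0.05, and with the index as a covariate it was 0.16. Manf, a secreted protein of the endoplasmic reticulum that protects stressed cardiomyocytes, stood at 20.4, 24.5 and 38.4 CPM at 30 mg/kg and at 21, 40.7 and 118 CPM at 100 mg/kg. The groups overlapped, male 4 stood at 118 CPM and the other 7 reached at most 64.2 CPM. The difference was 0.89 with an SE of 0.27 (adjusted p = 0.373), and 0.51 with an SE of 0.23 without the pair.

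Sdf2l1, another protein of the endoplasmic reticulum, stood at 2.74, 3.55 and 7.04 against 2.75, 5.6 and 18.5 CPM (0.95 with an SE of 0.31, and 0.55 without the pair). Hspa5, the chaperone BiP, stood at 453, 470 and 604 against 388, 581 and 783 CPM, and its highest value was that of 100 mg/kg male 1 (0.26 with an SE of 0.13). Xbp1, the transcription factor spliced by IRE1, stood at 44.8, 51.9 and 72.7 against 43.6, 65.7 and 104 CPM (0.31, and 0.10 without the pair). Pdia3, a disulfide isomerase, differed by 0.33 (0.16 without the pair) and Atf4, the transcription factor of the integrated stress response, by 0.21. These 5 genes were named after their values were seen. Of 17 heat shock chaperones, 0 were called and the median was 0.04 (−0.03 without the pair and −0.02 on log2(FPKM + 1)). Hspe1, the mitochondrial chaperonin subunit, stood at 52.1, 58.6 and 64.4 against 54.4, 68.1 and 110 CPM (0.33, and 0.15 without the pair).

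**Figure D4:**
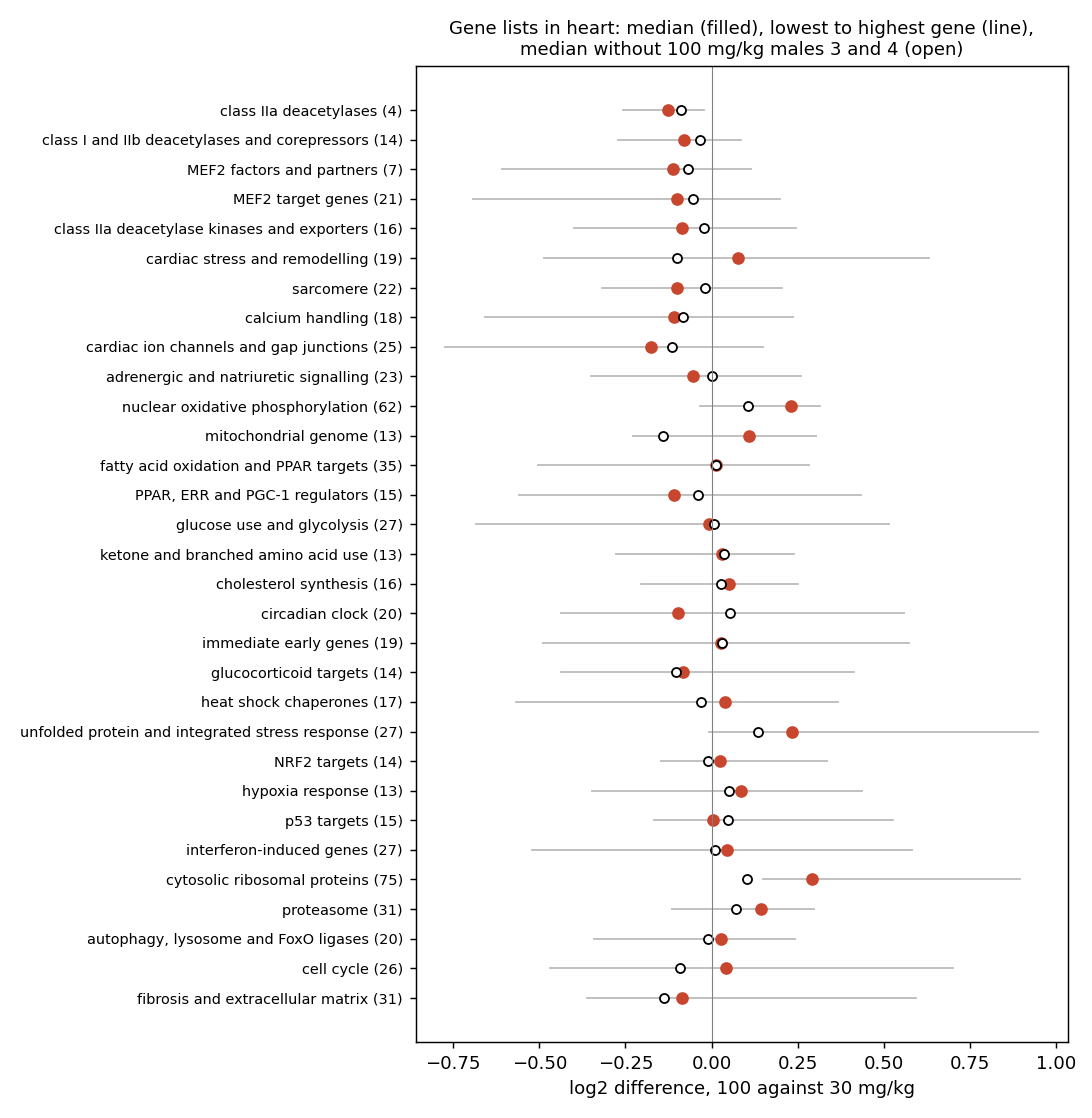
Median log2 difference of 100 against 30 mg/kg (horizontal axis) for the 31 lists of pathways and functions, with the number of tested genes in parentheses; filled points are medians over all libraries, lines run from the lowest to the highest gene, and open points are medians without 100 mg/kg males 3 and 4. Ribosomal proteins lie furthest to the right at 0.29, with 0.10 for the open point.

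Genes of electrical conduction were lower at 100 mg/kg in estimate. Of 25 tested cardiac ion channel and gap junction genes, 0 were called, 22 estimates were below 0 and 8 had an unadjusted p under 0.05, beside 5.11% of all genes in that direction. Their median was −0.18, and −0.11 without males 3 and 4, when 21 estimates were below 0 and 1 had an unadjusted p under 0.05. The median effective length of these genes was 3720 bases, and with the short-transcript index as a covariate the median was −0.08. Kcnd2, a pore subunit of the transient outward potassium current, stood at 19.7, 23 and 28.7 CPM at 30 mg/kg and at 13.2, 20.2 and 23 CPM at 100 mg/kg. The highest value at 100 mg/kg equalled the median at 30 mg/kg to 3 digits. The difference was −0.30 with an SE of 0.10 (adjusted p = 0.373), and −0.24 with an SE of 0.09 without the pair.

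Hcn4, the pacemaker channel of the sinus node, stood at 1.93, 3.14 and 4.79 against 0.531, 2 and 2.97 CPM (−0.77 with an SE of 0.33, and −0.51 with an SE of 0.32). Kcne1, a subunit of the slow delayed rectifier current, stood at 2.02, 6.82 and 10.3 against 2.71, 3.99 and 7.94 CPM (−0.58 with an SE of 0.26). Its difference was −0.58 without the pair and −0.35 without 30 mg/kg male 1. Both were named after their values were seen, their groups overlapped and neither was called. Of 18 calcium handling genes, 15 estimates were below 0 and 0 were called, with a median of −0.11 (−0.08 without the pair). Cacna1c, the L-type calcium channel pore, stood at 179, 249 and 301 against 82.9, 209 and 296 CPM (−0.36 with an SE of 0.17, and −0.15 with an SE of 0.15 without the pair). Ryr2, the calcium release channel, differed by −0.35 with an SE of 0.19 and by −0.15 without the pair. Atp2a2, the calcium pump SERCA2, stood at 8580, 10200 and 11900 against 6800, 9230 and 10700 CPM (−0.16 with a 95% interval from −0.36 to 0.03).

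Genes of the contractile apparatus and of cardiac stress did not pass the test in either direction. Of 22 sarcomere genes, 0 were called, 13 estimates were below 0 and the median was −0.10 (−0.02 without males 3 and 4). Mylk3, the cardiac myosin light chain kinase, stood between 449 and 636 CPM at 30 mg/kg and between 322 and 566 CPM at 100 mg/kg (−0.26 with an SE of 0.09, and −0.16 without the pair). Myh6, the main myosin heavy chain of the adult mouse heart, stood at 15900, 18100 and 21000 against 8260, 17100 and 20100 CPM (−0.24, and −0.05 without the pair). Myh7, the fetal myosin heavy chain that returns in hypertrophy, had medians of 163 and 133 CPM (−0.49 with an SE of 0.25, adjusted p = 0.394). Its difference was −0.39 without the pair and −0.31 without 30 mg/kg male 2.

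Of 19 genes of cardiac stress and remodelling, 0 were called and 10 estimates were above 0, with a median of 0.08, which was −0.10 without males 3 and 4 and −0.04 on log2(FPKM + 1). Nppb, the natriuretic peptide BNP that rises with wall stress, stood at 74.7, 117 and 185 CPM at 30 mg/kg and at 94.3, 177 and 372 CPM at 100 mg/kg. The groups overlapped, and the highest value was that of male 4. The difference was 0.63 with an SE of 0.27 (unadjusted p = 0.0251, adjusted p = 0.373), and 0.41 with an SE of 0.28 without the pair. Nppa, the atrial natriuretic peptide, stood at 1000, 1360 and 2040 against 987, 1340 and 1480 CPM (−0.17 with a 95% interval from −0.62 to 0.27, and −0.09 without 30 mg/kg male 1). Of 23 adrenergic and natriuretic signalling genes, 14 estimates were below 0, and 11 without the pair. Gnas, the stimulatory G protein downstream of beta receptors, had medians of 644 and 756 CPM with overlapping groups (0.22 with an SE of 0.06, adjusted p = 0.373, and 0.17 without the pair). Of 31 fibrosis and matrix genes, 22 estimates were below 0 and the median was −0.09. Without the pair 29 were below 0 and the median was −0.14. Comp, a matrix protein, stood at 3.28, 4.05 and 5.32 against 2.78, 3.23 and 4.36 CPM (−0.30 with an SE of 0.12).

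Metabolic genes were mixed in direction. Of 27 genes of glucose use and glycolysis, 0 were called and 13 estimates were above 0 (16 without the pair). Pgam1, a glycolytic mutase, stood at 41.8, 59.3 and 83.2 against 67.9, 77.9 and 143 CPM, and outside male 4 it reached at most 83.8 CPM (0.51 with an SE of 0.16, and 0.37 without the pair). Of 35 genes of fatty acid oxidation and PPAR targets, 20 estimates were above 0 and the median was 0.01 (−0.02 on log2(FPKM + 1)). Txnip, an inhibitor of glucose uptake that follows glucose and fasting, stood at 351, 641 and 943 against 295, 446 and 790 CPM (−0.50 with an SE of 0.21, and −0.47 without the pair). Pdk4, the kinase that turns pyruvate dehydrogenase off in fasting, stood at 211, 549 and 826 against 151, 307 and 784 CPM (−0.49 with a 95% interval from −1.16 to 0.18, and −0.78 without 100 mg/kg female 4). Cpt1b, the carnitine transferase of muscle mitochondria, stood at 486, 536 and 660 against 489, 537 and 604 CPM. Its difference was −0.01 with a 95% interval from −0.15 to 0.13.

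Of 15 regulators of the PPAR, ERR and PGC-1 group, 12 estimates were below 0 (11 without the pair), and Esrrb differed by −0.23 with an SE of 0.09. Of 13 ketone and branched amino acid genes, 9 estimates were above 0, and 10 without the pair. Slc16a1, the transporter of lactate and ketone bodies, stood at 155, 193 and 223 against 187, 228 and 261 CPM (0.24 with an SE of 0.08, and 0.20 without the pair). Of the other lists, Egln3 of the hypoxia response differed by 0.44, Atg5 of autophagy by 0.18 and Fth1, the ferritin heavy chain among the NRF2 targets, by 0.26. All 3 had an adjusted p above 0.37 and overlapping groups, and the difference of Fth1 was 0.00 to 2 decimals with the index as a covariate.

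Markers of tissue around the heart were higher at 100 mg/kg in estimate. With all libraries, the 10 tested lung markers all had estimates above 0, 0 were called, and the median was 1.02. It was 0.52 without males 3 and 4, and −0.16 and 0.14 within the 2 forms of column name described last. Ager, a receptor of lung epithelium, stood at 0.18, 0.271 and 1.15 CPM at 30 mg/kg and at 0.113, 0.454 and 6.48 CPM at 100 mg/kg. Sftpc, a surfactant protein of alveolar cells, stood at 0, 0.0548 and 9.24 against 0, 0.536 and 55.7 CPM. In each dose group a single library held most of it, female 2 at 30 mg/kg and male 4 at 100 mg/kg. The summed lung markers ran from 0.692 to 1210 CPM at 30 mg/kg and from 36.8 to 2810 CPM at 100 mg/kg.

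Fat markers were also higher in estimate. All 9 tested white adipocyte markers and 8 of 9 brown adipocyte markers had estimates above 0, with medians of 0.61 and 0.65 (0.48 and 0.76 without males 3 and 4), and 0 were called. Cidea, a lipid droplet protein of brown fat, stood at 24.1, 53.8 and 81 against 60.9, 91.8 and 151 CPM (0.82 with an SE of 0.27, adjusted p = 0.373). Fabp4, the fatty acid binding protein of fat and capillary endothelium, stood at 402, 517 and 716 against 598, 735 and 1050 CPM (0.47 with an SE of 0.17), and Adipoq, adiponectin, at 6.5, 33.1 and 75.7 against 31.9, 51.5 and 86.8 CPM (0.61 with an SE of 0.51, and 0.92 without 30 mg/kg male 1). Summed brown adipocyte markers were 809.1 to 1087 CPM at 30 mg/kg and 1032 to 1724 CPM at 100 mg/kg. All 10 epicardial and mesothelial markers had estimates above 0, with a median of 0.48, and 0.14 without the pair. Aldh1a2, which makes retinoic acid in epicardium, stood at 18.5 CPM in male 4 and at 5.54 to 9.32 CPM in the other 7 libraries of its dose (0.49 with all libraries and 0.18 without male 4).

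With all libraries, the medians of the other cell types of the heart wall lay nearer to 0 than that of the epicardial markers. All 8 tested atrial markers had estimates below 0, with a median of −0.12, and −0.10 without 100 mg/kg male 4. Endothelial markers and endocardial and valve markers each had a median of −0.05. The 10 cardiomyocyte markers had a median of 0.01, and −0.02 without males 3 and 4. Of 11 fibroblast markers 7 estimates were below 0, and 9 without the pair, while Tcf21 differed by 0.21 with all libraries, 0.13 without male 4 and 0.09 without the pair. Of 10 smooth muscle and pericyte markers 7 were below 0, and 4 without the pair, and Smtn differed by −0.24 and −0.13. Of 14 macrophage markers 8 were above 0, and 2 without the pair. Ccr2 differed by 0.31 with all libraries, by 0.16 without male 4 and by 0.11 without males 3 and 4. None of these genes was called. The lists of functions and cell types not described one by one had 0 genes called and, with all libraries, medians between −0.40, for neutrophil markers, and 0.34, for B and plasma cell markers. Without males 3 and 4 these medians were −0.70 and 0.08, and the limits of the range were −1.81, for liver markers, and 0.44, for skeletal muscle markers. Of the liver markers 5 were tested, with a median of −0.39 that was −1.61 without 100 mg/kg male 4, when 4 were lower at an unadjusted p under 0.05, and 0.56 without 30 mg/kg male 4. Their summed level was 15.6, 63.5 and 140 CPM at 30 mg/kg and 17.1, 44.6 and 150 CPM at 100 mg/kg. The part that adjoining tissue has in the differences above was not tested.

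Each dose was also compared with vehicle in Q175 hearts, and these comparisons share their vehicle libraries. At 100 mg/kg 1 gene of 15979 (0.00626%) was called and at 30 mg/kg 1 gene (0.00626%). Cngb3, a subunit of a cyclic nucleotide-gated channel known from cone photoreceptors, was called at 100 mg/kg. It stood at 2.01, 3.13 and 3.82 CPM on vehicle, at 4, 4.72 and 7.25 CPM at 30 mg/kg and at 3.81, 5.45 and 8.15 CPM at 100 mg/kg, and at 2.94, 3.61 and 6.27 CPM in WT on vehicle. It rose by 0.95 with an SE of 0.16 (adjusted p = 0.0202) at 100 mg/kg, and the difference at 30 mg/kg was 0.71 with an SE of 0.16 (adjusted p = 0.293). Between the doses it differed by 0.25 with a 95% interval from −0.07 to 0.57, and by 0.16 without 100 mg/kg female 1.

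The call at 30 mg/kg was 2900052N01Rik, a gene with a clone name. It stood at 0.582, 0.786 and 1.37 CPM on vehicle, 0.2, 0.371 and 0.439 CPM at 30 mg/kg, and 0.301, 0.52 and 0.735 CPM at 100 mg/kg, with 0.29, 0.371 and 0.546 CPM in WT. It fell by 1.34 with an SE of 0.21 (adjusted p = 0.00589) at 30 mg/kg, and the difference at 100 mg/kg was −0.76 with an SE of 0.20 (adjusted p = 0.252). Against vehicle, the cytosolic ribosomal proteins had a median of 0.15 at 100 mg/kg and of −0.14 at 30 mg/kg, and the cardiac ion channels −0.06 and 0.12. Among the Q175 vehicle libraries, female 4 had a short-transcript index of 0.83. Female 2 stood apart in T, NK, B and plasma cell markers and female 3 in lung markers. The comparisons with vehicle, with their 2 calls, were not repeated without these libraries or without 100 mg/kg males 3 and 4.

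Within each sex 0 genes were called (0% in males and 0% in females). At an unadjusted p under 0.05 there were 2463 genes in males and 652 in females, and the smallest adjusted p was 0.0727 and 0.889. The difference of the effect between the sexes was tested directly and 0 genes were called (0%), with 1058 at an unadjusted p under 0.05 and a smallest adjusted p of 0.509 in edgeR. DESeq2 called 1 gene for that difference, Ankrd1. Ankrd1 encodes a stretch-responsive ankyrin repeat protein of the sarcomere and nucleus, and is a MEF2 target. In males it stood between 686 and 1240 CPM at 30 mg/kg and between 400 and 459 CPM at 100 mg/kg, with no overlap. In females it stood between 297 and 509 CPM at 30 mg/kg and between 364 and 619 CPM at 100 mg/kg. On vehicle, Q175 males stood between 446 and 998 CPM and WT males between 506 and 827 CPM. Both ranges overlapped the males at 30 mg/kg, and the Q175 range also overlapped the males at 100 mg/kg. Males 1 and 2 at 30 mg/kg, highest for Ankrd1, also had the highest summed atrial markers of their dose, 3477 and 3296 CPM. A link between them was not tested. The log2 difference of Ankrd1 was −1.18 with an SE of 0.22 in males (edgeR adjusted p = 0.0843) and 0.29 with an SE of 0.22 in females (0.889). The female effect minus the male effect was 1.47 with an SE of 0.31 in edgeR (adjusted p = 0.509) and 1.46 with an adjusted p of 0.0438 in DESeq2. Without males 3 and 4 it was 1.45 with an SE of 0.37 (edgeR adjusted p = 0.9).

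Cytl1 and Prss35 had the next smallest p for the difference between sexes, with groups that did not overlap in either sex and lay in opposite order. Cytl1, a secreted protein known from cartilage, stood between 9.26 and 13.1 CPM in males at 30 mg/kg and between 14.5 and 20 CPM in males at 100 mg/kg. In females it stood between 15.3 and 19 CPM and then between 11.9 and 14.1 CPM. Female minus male was −0.98 with an SE of 0.22 (edgeR adjusted p = 0.509). Prss35, a protease-like gene, was under 1 CPM in every library. In males, Adam11, Parp3 and Prkab2 had differences of −0.79, −0.36 and −0.51 with edgeR adjusted p of 0.0727, 0.0843 and 0.0843, and their male groups did not overlap. In females the same genes differed by −0.06, −0.05 and −0.09. Ankrd1, Cytl1, Prss35, Adam11, Parp3 and Prkab2 were picked by their p in these same libraries, so their separated groups add no support. The share of all genes with separated dose groups within a sex was not counted.

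Estimates for genes of the circadian clock mostly lay in opposite directions in the sexes. The clock is a loop in which Arntl and Clock drive Per, Cry and output genes such as Dbp, which peak at another time of day. Of 20 clock genes tested, 0 were called in either sex, 14 had estimates below 0 in males and 14 above 0 in females, and the medians were −0.60 in males and 0.22 in females. Without males 3 and 4 the median in males was −0.36, with 14 of 20 again below 0. Dbp stood at 40.9 to 81.8 CPM in males at 30 mg/kg and at 5.98 to 45.2 CPM in males at 100 mg/kg. In females it stood at 6.26 to 20.3 CPM and then at 6.64 to 72.4 CPM, where female 3 alone was above 18.7 CPM. Arntl, which runs opposite to Dbp, stood at 3.19 to 13 CPM in males at 30 mg/kg and at 7.08 to 26.7 CPM in males at 100 mg/kg. In females it stood at 20.3 to 25.1 CPM and then at 3.59 to 26.5 CPM, lowest in the same female 3. Female 3 was also highest for Ciart and Per3 among females at 100 mg/kg, at 10.3 and 44.6 CPM. The other females of that dose reached at most 2.6 and 18.9 CPM. Over both sexes the median of the clock genes was −0.10 with all libraries and −0.29 without 100 mg/kg female 3. The median within females without that library was not computed.

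At 30 mg/kg all 4 males lay above all 4 females for Dbp and below them for Arntl. WT hearts on vehicle showed the same order. There Dbp stood at 21.1 to 35.9 CPM in males and at 7.44 to 19.2 CPM in females. Arntl stood at 8.94 to 14.7 CPM in WT males and at 18.1 to 24.2 CPM in WT females. In Q175 hearts on vehicle the sexes overlapped for both genes. At 100 mg/kg the sexes overlapped, and male 2 and female 3 had the highest Dbp and the lowest Arntl. Female minus male was 2.72 with an SE of 1.09 for Dbp, 3.03 with an SE of 1.05 for Ciart, a repressor of the clock, 1.83 for Per3, 0.98 with an SE of 0.26 for Cry2, 1.23 for Bhlhe41, −1.76 with an SE of 0.74 for Arntl and −1.49 for Nfil3. The smallest adjusted p among clock genes was 0.509, so none of these differences passed. These 7 differences kept their sign without libraries that stand apart, without males 3 and 4, without a filter on low counts and in DESeq2. Those settings share most libraries, and none leaves out 100 mg/kg male 2 or female 3. The kept signs follow largely from that and add no support. The clock genes were named after their values were seen, and the hour of tissue collection is not given in the labels.

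**Figure D5:**
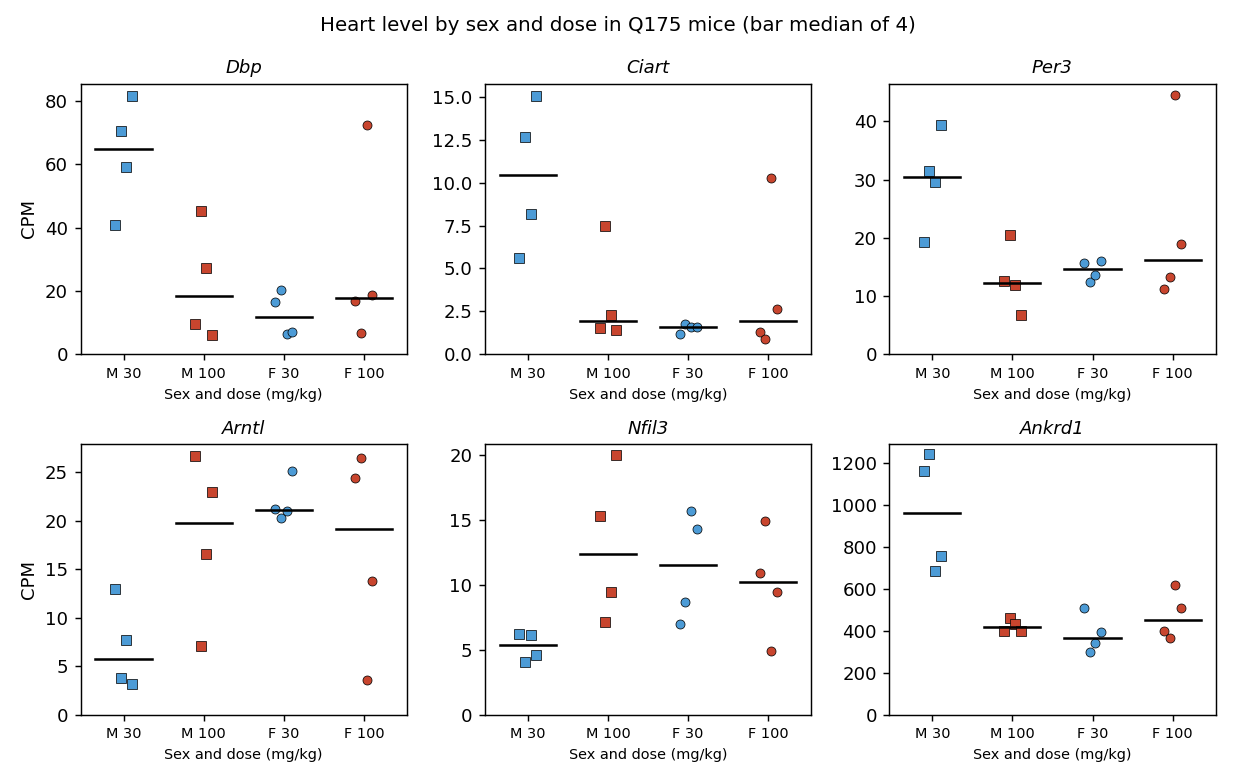
CPM in each heart (vertical axis, from 0) by sex and dose for 5 clock genes and Ankrd1, with a bar for the median of 4. Males at 30 mg/kg stand at 40.9 to 81.8 CPM for Dbp and 686 to 1240 CPM for Ankrd1, and at 100 mg/kg a single male and a single female reach that range for Dbp.

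The same 16 mice gave tibialis muscle and liver, so that the effect in heart was compared with the effect in those tissues within each animal. Heart minus tibialis had 0 genes called of 14029 (0%), with 457 at an unadjusted p under 0.05, and heart minus liver 0 of 13893 (0%), with 975, by limma. Between the doses in liver itself, edgeR called 94 of 15001 genes, 45 higher and 49 lower at 100 mg/kg (smallest adjusted p 0.000384). In tibialis itself it called 0 of 14708. A difference between tissues that was not called thus does not show that the tissues responded alike. A single tibialis library, 100 mg/kg male 1, stood apart in markers of nerve tissue: its summed brain markers were 1310 CPM against 295 to 444 CPM in the other 15, and its Schwann and neuronal markers 336 CPM against 26 to 109 CPM. Between the doses in tibialis, the 9 tested brain markers had a median log2 difference of 1.86, the 6 Schwann and neuronal markers 1.23 and the 12 liver markers 1.38. Without that animal, heart minus tibialis had 0 genes called, 890 at an unadjusted p under 0.05 and a smallest adjusted p of 0.701. The smallest adjusted p for heart minus liver was 0.0562. It belonged to Casc4, Map1a and Aldh3a2, the last an aldehyde dehydrogenase of fat metabolism. Casc4 differed by −0.21 in heart and by 0.61 in liver (heart minus liver −0.84 with an SE of 0.13). Map1a differed by −0.28 in heart and 1.20 in liver, and Aldh3a2 by −0.05 and 0.63. For heart minus tibialis, Ptger3 (1.58), Sh3rf1 (−0.74) and Eml4 (−0.53) had the smallest p, each with an adjusted p of 0.998. Hdac4 differed by −0.26 in heart, −0.04 in tibialis and −0.14 in liver. The cytosolic ribosomal proteins had medians of 0.29 in heart, 0.04 in tibialis and 0.08 in liver, and the nuclear oxidative phosphorylation genes 0.23, −0.09 and 0.09, with no test of a list's difference between tissues.

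The names of the columns in the deposited tables end either in a lane and an index or in a number, and the 2 forms were not balanced between the doses. At 100 mg/kg 2 libraries had a lane and index and 6 a number, and at 30 mg/kg 6 and 2. With the form of the name as a covariate 0 genes were called and 1006 had an unadjusted p under 0.05. Within libraries named with a lane and index there were 387 at that level and within those named with a number 380, with 0 called in each. The median of the cytosolic ribosomal proteins was 0.16 and 0.25 in these 2 sets, and that of the cardiac ion channels −0.15 and −0.14.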

How the data were processed

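The labels give total RNA extracted with the Qiagen miRNeasy kit, checked on a Bioanalyzer, and Illumina libraries built from enriched RNA subfractions that are not described further. CASAVA 1.8.2 is named in the submitters' processing notes, while aligner, build, annotation, counter and strand setting are not given in the sources used. The authors deposited a table of estimated counts per Ensembl gene for 43432 genes, 26.3% of the non-zero values being fractional (tolerance 0.001), and a table of FPKM for the same genes. Estimated counts were rounded here. Symbols came from a reference table of gene names, which matched 42462 identifiers. Effective length was taken per gene from the ratio of the deposited count to the deposited FPKM.

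In R 4.3.3, edgeR 4.0.16 kept genes by filterByExpr on the 4 heart groups, scaled by TMM and fitted robust quasi-likelihood models with group and sex over 32 libraries. P-values were adjusted by Benjamini-Hochberg over 15979 genes, with a threshold of 0.05. DESeq2 1.42.0 and limma 3.58.1 on log2(FPKM + 0.1) and log2(FPKM + 1) gave alternatives. For tissues, limma tested heart minus the other tissue per animal, on log2 CPM with a prior count of 2. The scripts were tested on simulated data with known changes. No molecular identifiers are mentioned in the labels, so depth bears on counting error only.

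Named were Htt and the class IIa deacetylases, the 10 genes of smallest p in each direction with at least 1 CPM and a symbol that is no predicted or clone name, the member of smallest p in each list described, out of 54 lists, and the 3 genes of smallest p for the difference between sexes and for each tissue difference. Genes of the Y chromosome and of X inactivation were not named. The comparison and the gene lists were chosen with earlier results of these data known. A library stood apart where a marker list summed to over 5 times the median of the 32 hearts and over 5 CPM, which left out 100 mg/kg M4 and 2 vehicle libraries in an alternative.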

Additional observations from a re-analysis of the deposited data

Results flagged for a closer look

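In 25 of 198 group and measure combinations examined (12.6%), a single library lay far from the other 7 of its dose. Chance alone flags about 1 in 20 independent groups at this limit, and the measures here share their libraries. Of the 25, most were 100 mg/kg male 4. That library was high for Rab5if (68.1 CPM, others 33 to 47.7), Timm9 (23, others 10.2 to 13.7), Cox6a1 (139, others 57.7 to 73.8), Pgam1 (143, others 67.9 to 83.8), Manf (118, others 21 to 64.2), Xbp1 (104, others 43.6 to 69), Ptger3 (6.32, others 0.891 to 3.28), Ccr2 (6.51, others 2.79 to 4.07), Ager (6.48, others 0.113 to 2.54), Sftpc (55.7, others 0 to 13.8) and Aldh1a2 (18.5, others 5.54 to 9.32). It was low for Rps6ka2 (23, others 33.1 to 41.5), Camk2a (27.9, others 36.5 to 40.5), Esrrb (13.2, others 19.8 to 23.3), Mef2a (123, others 152 to 170) and Eml4 (4.53, others 6.6 to 8.22). Its summed lung markers (2810 CPM, others 36.8 to 901) and brown adipocyte markers (1720 CPM, others 1030 to 1260) also lay far from the rest.

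At 30 mg/kg, female 2 was high for Egln3 (57.5 CPM, others 27.8 to 38.2), Ager (1.15, others 0.18 to 0.41) and Sftpc (9.24, others 0 to 0.107). Female 3 was high for Sdf2l1 (7.04, others 2.74 to 4.66), Xbp1 (72.7, others 44.8 to 57.2) and the summed unfolded protein and integrated stress response genes (2430 CPM, others 1790 to 2080). Male 4 was high for Gnas (754, others 626 to 674). What sets these libraries apart was not tested.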

How the results depend on the processing

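No alternative called a gene between the doses. The number with an unadjusted p under 0.05 ranged from 380 to 2840, and leaving out each library in turn gave 785 (without 100 mg/kg M4) to 2840 (without 100 mg/kg F4). Differences between sexes had 0 calls as reported and 1, Ankrd1, in DESeq2. Of the values for named genes, 52 changed sign, all of them for genes that were not called; the cause was not tested. With the short-transcript index as a covariate these were Fth1 (−0.00192), Htt (0.00867), Map1a (0.0115), Mef2c (0.0076), Hdac9 (0.0353), Cytl1 (−0.0377), Hdac7 (0.0566) and Cpt1b (0.0357). In males alone they were Cngb3 (−0.0423), Hdac9 (0.243) and Prss35 (1.49), and in females alone Ankrd1 (0.298), Cytl1 (−0.395), Hdac7 (0.0571) and Cpt1b (0.0665). Among columns named with a lane and index they were 2900052N01Rik (−0.0189), Ager (−0.887), Ankrd1 (0.0747), Sftpc (−2.63), Pdk4 (0.158), Nppa (0.00374), Cytl1 (−0.174) and Cpt1b (0.0563). Among columns named with a number they were Sh3rf1 (0.0284), Cngb3 (−0.104), Mef2c (0.0198), Hdac9 (0.143), Cytl1 (−0.0182), Hdac7 (0.135) and Cpt1b (0.0119). With the form of the name as a covariate they were Cytl1 (−0.0667) and Hdac7 (0.0394). Without libraries that stand apart they were Cytl1 (−0.0104), Hdac7 (0.0042) and Cpt1b (0.0216), and without 100 mg/kg M3 and M4 Cytl1 (−0.0616), Hdac7 (0.0351) and Cpt1b (0.0534). On log2(FPKM + 0.1) and log2(FPKM + 1), Hdac7 was 0.0424 and 0.0393. Leaving out each library in turn, Prss35 ranged from −0.381 to 0.0481, Cytl1 from −0.0166 to 0.126, Hdac7 from −0.0544 to 0.0128 and Cpt1b from −0.0394 to 0.0265. List medians moved by more than the spread between libraries in 48 cases and by less in 1680. Replicate numbers pair no animals: same-numbered libraries of the 2 doses correlated between −0.242 and 0.46, 3 of 8 matched best with their own number, and the replicate block called 0 genes, with 2023 at an unadjusted p under 0.05. The index covariate, males 3 and 4, the tibialis of male 1, the name forms and the list medians were chosen after seeing the data. Genes whose interval was wider than 1.5-fold had lower levels.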
